A study of Mus musculus with 335 samples.

Results

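EMT6 tumours were the 4 primary tumours whose titles name the EMT6 line, an orthotopic injection and a primary tumour, and they were set against 24 primary tumours of 6 other mammary tumour lines sequenced in the same numbered set of libraries. These 28 libraries were part of 335 RNA-seq libraries from mouse models of metastatic mammary cancer. EMT6 tumours grew from a line labelled BALB, as did the tumours of D2A1, F311 and TSAE1, whereas E0771 is labelled BL6, HRM1 FVB and R3T 129S1J. The labels give Pik3ca as the oncogenic driver of HRM1 and leave the driver of EMT6 and of the other 5 lines unknown. Every line had 4 tumours, all untreated, all from cells injected into the mammary site of a mouse, and no age or sex is labelled. The EMT6 tumours are numbered 1, 2, 3 and 5. Each line is a single cell line, so line, labelled strain and everything else that goes with a line cannot be told apart. The deposited column names give all 4 TSAE1 tumours the same animal number although their titles number them separately, so the TSAE1 libraries may stem from 1 animal.

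EMT6 is a transplantable mouse mammary carcinoma line of BALB/c origin that is much used in studies of tumour immunity. Mammary carcinoma lines range from epithelial ones, which keep E-cadherin, tight junctions, keratins and a laminin-rich basement membrane, to spindle-shaped ones that have lost these. A tumour in a host also holds leukocytes, fibroblasts and vessels. Cytotoxic T and NK cells release interferon gamma, which turns on antigen presentation and guanylate-binding proteins in cells around them. The transcription factor NRF2 is held low by KEAP1 and, when freed by oxidants or electrophiles, turns on genes of quinone reduction, glutathione synthesis and thioredoxin.

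Total counted reads, recovered from the step size of the deposited values, were 31414370 to 37919499 in the EMT6 libraries and 27913377 to 54906212 in the other 24. Levels are RPKM, read counts scaled to the length of the transcript and to the counted reads of the library, and 1 read in a transcript of 1 kilobase was worth 0.0264 to 0.0318 RPKM in the EMT6 libraries. Differences are on the log2(RPKM + 1) scale, EMT6 minus the other lines, with a standard error, and this scale understates the change of low genes. Calls needed limma's adjusted p to be under 0.05 over the 12181 genes tested, and a difference of at least 1, that is 2-fold. These p-values measure the spread between tumours of 1 line. Of the 6 lines, TSAE1 had the profile nearest to EMT6, with a Spearman correlation of line means across genes of 0.914, followed by F311 at 0.905, and E0771 was the farthest at 0.831. The same measure between the 6 other lines ran from 0.793 to 0.923, so EMT6 was no more distant than they were from each other.

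EMT6 tumour 2 stood apart from the other 3. Pairs among tumours 1, 3 and 5 correlated at 0.982 to 0.990 across genes, and pairs with tumour 2 at 0.957 to 0.965. Tumour 2 was at least 2-fold above each of the other 3 in 238 genes and at least 2-fold below each in 42, whereas tumour 1 was so in 11 and 1, tumour 3 in 10 and 3, and tumour 5 in 1 and 38. Of 11 tested T and NK cell genes 8 were at least 2-fold above in tumour 2, and of 2 tested B and plasma cell genes 1 was. The summed level of 8 milk protein genes was 6.24, 318, 1.96 and 1.25 RPKM in EMT6 tumours 1, 2, 3 and 5. In the other 24 tumours that sum was 0.673 to 25.9 RPKM, so tumour 2 did not differ in lymphoid genes alone. Cd79b, a chain of the B cell receptor, had 1.43, 83.6, 0.472 and 0.852 RPKM in EMT6 tumours 1, 2, 3 and 5. Pou2af1, a B cell co-activator, had 0.0282, 30.3, 0.0191 and 0.00944 RPKM in the EMT6 tumours. In both genes tumour 2 alone was high. Ccl19, a chemokine made in the T cell zone of lymph nodes, showed the same pattern at 2.36, 185, 3.09 and 2.88 RPKM in the EMT6 tumours. In the opposite direction, Ctsk, a collagen-degrading cathepsin, had 109, 3.34, 41.1 and 113 RPKM in the EMT6 tumours, with tumour 2 alone low. Counts of immune genes are therefore also given below without tumour 2.

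Against the equally weighted mean of the 6 lines, 687 genes were higher in EMT6 (5.64% of those tested) and 338 were lower (2.77%), 1025 in either direction (8.41%). The median difference over all genes tested was -0.05. With each line reduced to 1 mean, so that the spread between lines is the error, limma called 0 genes in each direction (unadjusted p under 0.05 in 312 higher and 156 lower), so the calls describe these lines and not lines in general. When each of the 7 lines was set in turn against its 6 others, the higher and lower calls were 310 and 1105 for D2A1, 748 and 1486 for E0771, 693 and 171 for F311, 695 and 324 for HRM1, 437 and 338 for R3T, and 518 and 183 for TSAE1. Both EMT6 counts lay within the range of the other lines.

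A stricter comparison asked that EMT6 differ from each of the 6 lines, by the largest of the 6 p-values per gene. It found 202 genes higher in EMT6 than in every line (1.66% of genes tested) and 146 lower (1.2%). In 96 genes (0.788%) EMT6 was at least 2-fold higher in each contrast, and in 10 (0.0821%) at least 2-fold lower. All 4 EMT6 tumours lay above all 24 others in 267 genes (2.19%) and below all of them in 268 (2.2%). Without TSAE1 the counts were 248 higher and 168 lower than in each of the remaining 5 lines, and 195 and 133 of the calls were shared. The genes described next are 14 of the 15 with the largest margin over the nearest line among the higher ones, and 7 of the 8 that met the same rule among the lower ones. The rule also asked for at least 2-fold in each contrast and for no overlap with the other 24 tumours. The separation of these 21 genes was therefore fixed by their choice and is not a further result. All 21 were also called without TSAE1, and without EMT6 tumour 2.

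The leading gene was Crabp2, which encodes a protein that carries retinoic acid to its nuclear receptor. It had 344, 345, 417 and 439.7 RPKM in EMT6 tumours 1, 2, 3 and 5, against 0.278 to 38.0 RPKM with a median of 3.36 in the 24 tumours of the other lines. All EMT6 tumours lay far above the highest other tumour, and the difference was 6.24 ± 0.39, adjusted p = 5.04e-12. Stra6, the membrane receptor that takes up retinol from its plasma carrier, had low values in EMT6, with 0.222, 0.321, 0.319 and 0.439 RPKM against 0.105 to 51.9 RPKM with a median of 1.95 in the other 24. E0771 tumours were as low as EMT6, at a mean of 0.304 RPKM, so the groups overlapped, and the difference from the mean of the lines was -2.23 ± 0.27, adjusted p = 3.59e-07.

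Il1rl1, which encodes ST2, the receptor for interleukin 33, had 96.1, 104, 121 and 73.6 RPKM in the EMT6 tumours, against 0.438 to 4.03 RPKM with a median of 1.95 in the other 24. No other line came near this level, and the difference was 5.14 ± 0.15, adjusted p = 1.06e-18. Il33, its ligand, had 17.5, 12.0, 32.0 and 17.7 RPKM in EMT6, against 2.05 to 91.2 RPKM with a median of 5.29 in the other 24. It was called higher against the mean of the lines (1.18 ± 0.31, adjusted p = 0.00278), but F311 tumours were above EMT6 at a mean of 51.9 RPKM.

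Secreted matrix and guidance proteins followed. Ogn, which encodes the small leucine-rich proteoglycan osteoglycin, had 252, 201, 293 and 263 RPKM in the EMT6 tumours, against 0.0410 to 32.0 RPKM with a median of 4.89 in the other 24, a difference of 5.35 ± 0.30, adjusted p = 5.2e-13. Sema3a, a secreted semaphorin that repels growing axons, had 60.9, 57.7, 66.5 and 67.1 RPKM in the EMT6 tumours, against 0.166 to 9.90 RPKM with a median of 0.528 in the other 24, a difference of 4.73 ± 0.14, adjusted p = 1.06e-18. Igfbp6, which binds insulin-like growth factor II, had 90.8, 71.7, 86.4 and 51.0 RPKM in the EMT6 tumours, against 0.615 to 24.3 RPKM with a median of 2.83 in the other 24, a difference of 3.78 ± 0.32, adjusted p = 1.08e-09. In all 3 genes every EMT6 tumour was above every other tumour, as the rule required. Pdpn, the mucin-like podoplanin of lymphatic vessels, fibroblasts and some tumour cells, had 93.8, 75.2, 89.6 and 81.8 RPKM in the EMT6 tumours, against 0.801 to 27.7 RPKM with a median of 7.27 in the other 24, a difference of 3.61 ± 0.22. The groups did not overlap here either.

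Enzymes of small-molecule metabolism were also among them. Nqo1, an NRF2 target that reduces quinones, had 39.4, 45.9, 41.1 and 39.3 RPKM in the EMT6 tumours, against 0.256 to 7.91 RPKM with a median of 3.63 in the other 24, a difference of 3.42 ± 0.16, adjusted p = 2.31e-14. The EMT6 values lay close together and all were above the highest other tumour. Gstm1, a glutathione transferase, had 210.3, 174, 161 and 166 RPKM in the EMT6 tumours, against 3.84 to 63.0 RPKM with a median of 10.1 in the other 24, a difference of 3.63 ± 0.27, adjusted p = 8.16e-11. The groups were separate, although reads shared with its near-identical family members make the level of this gene uncertain. Ch25h, which makes 25-hydroxycholesterol, had 64.5, 56.7, 51.2 and 76.4 RPKM in the EMT6 tumours, against 1.86 to 16.7 RPKM with a median of 5.24 in the other 24, a difference of 3.26 ± 0.25. Akr1c14, an aldo-keto reductase of steroids, had 7.41 to 10.2 RPKM in EMT6 tumours, against 0 to 3.42 RPKM with a median of 0.145 in the other 24. Inmt, a methyltransferase of indoleamines, had 25.6, 9.37, 4.63 and 5.16 RPKM in EMT6, with tumour 1 the highest, against 0 to 2.25 RPKM with a median of 0.0167 in the other 24. By the same rule these 3 genes were also higher in every EMT6 tumour than in any other tumour.

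The 3 remaining genes were Apol10b, an apolipoprotein L family member, with 43.4 to 55.9 RPKM in EMT6 tumours and 0.265 to 10.0 RPKM in the other 24, Rerg, a small Ras-like GTPase, with 5.50 to 11.1 RPKM and 0.0297 to 1.17 RPKM, and Phactr1, a regulator of actin and protein phosphatase, with 6.48 to 8.23 RPKM and 0.0573 to 2.14 RPKM. Their differences were 3.71 ± 0.27, 2.73 ± 0.14 and 2.47 ± 0.15. When the 7 further orthotopic allograft lines of the series, from other library sets, were set beside them without a test, EMT6 had the highest mean of all 14 lines in 11 of the 14 genes and the next to highest in 3. The exceptions were Inmt and Phactr1, where 4T07 was higher (22.8 and 8.47 RPKM), and Pdpn, where 67NR reached 366 RPKM.

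**Figure D1:**
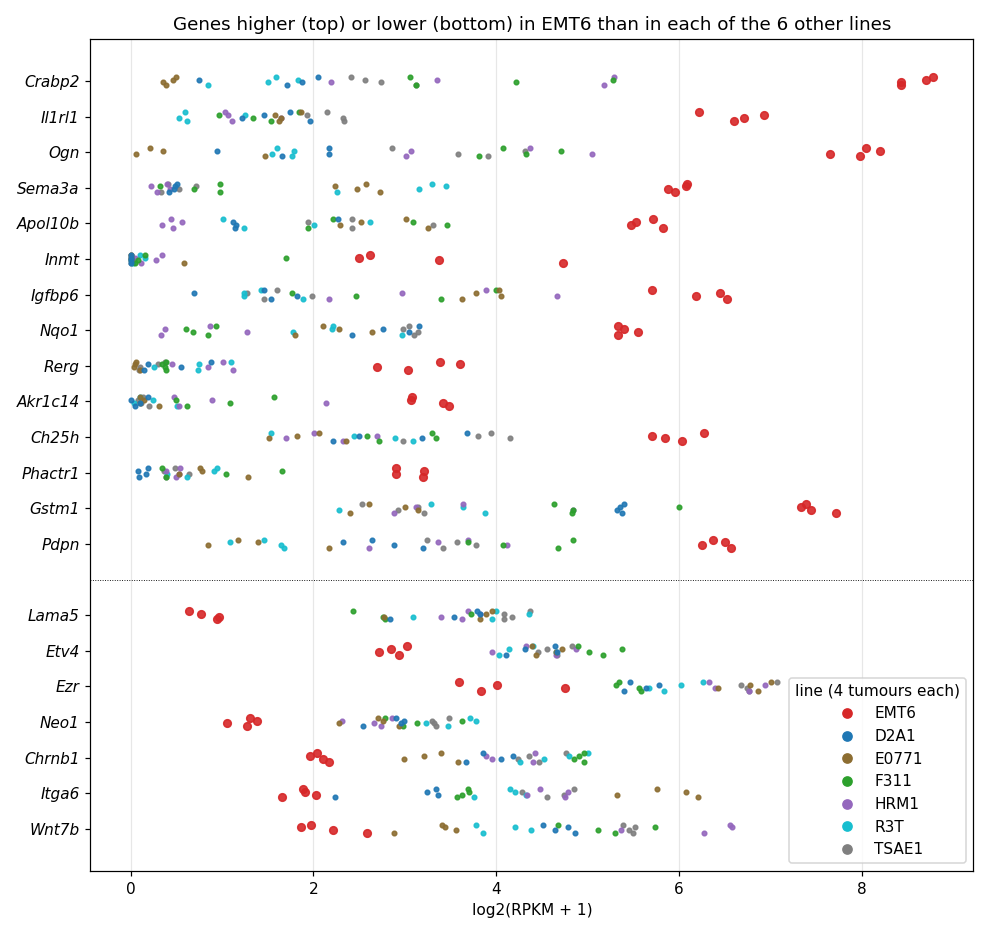
Levels on the log2(RPKM + 1) axis of 14 genes highest in EMT6 (above the dotted line) and 7 lowest (below it), with 1 point per tumour and 1 colour per line (4 tumours each). By the choice of genes, the red EMT6 points lie right of all other points in the upper genes, as in Crabp2 and Il1rl1. They lie left of all others in the lower genes, as in Lama5.

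Of the 7 genes described as lower than in every line, 3 belong to the contact of epithelial cells with laminin and the cortex below it. Lama5, the alpha 5 chain of laminin, had 0.919, 0.957, 0.707 and 0.559 RPKM in the EMT6 tumours, against 4.42 to 19.7 RPKM with a median of 13.0 in the other 24. Every EMT6 tumour was below 1 RPKM and below every other tumour, a difference of -2.79 ± 0.21, adjusted p = 1.17e-10. Itga6, the alpha 6 integrin chain of laminin receptors, had 2.15, 3.07, 2.75 and 2.70 RPKM in the EMT6 tumours, against 3.70 to 73.1 RPKM with a median of 18.7 in the other 24. The groups did not overlap, and the difference was -2.44 ± 0.16, adjusted p = 5.25e-12. Ezr, which ties the plasma membrane to actin, had 13.3, 26.0, 15.1 and 11.0 RPKM in the EMT6 tumours, against 38.6 to 134 RPKM with a median of 77.7 in the other 24. Tumour 2 was the highest of the EMT6 tumours and still below all others (-2.15 ± 0.14, adjusted p = 1.18e-11).

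Signalling genes were Wnt7b, a Wnt ligand, with 5.01, 3.65, 2.65 and 2.92 RPKM in EMT6 and 6.39 to 94.4 RPKM with a median of 27.3 in the other 24, and Etv4, an ETS transcription factor that responds to MAP kinase signalling, with 6.67, 5.58, 6.20 and 7.16 RPKM in EMT6 and 14.5 to 40.7 RPKM with a median of 24.0 in the other 24. Both were lower in all EMT6 tumours, by differences of -2.66 ± 0.17 and -1.70 ± 0.13. Neo1, a receptor of netrins and repulsive guidance molecules, had 1.07 to 1.60 RPKM in EMT6 and 3.84 to 12.7 RPKM in the other 24 (-1.78 ± 0.13). Chrnb1, a subunit of the muscle acetylcholine receptor, had 2.91 to 3.51 RPKM in EMT6 and 6.92 to 31.2 RPKM (-2.17 ± 0.12). Neither overlapped between EMT6 and the other lines, again by the rule of choice. Among the 14 orthotopic lines EMT6 had the lowest mean in 6 of the 7 genes, and Wnt7b was the exception.

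NRF2 targets were higher in EMT6 as a group. Of 12 genes on the list 11 were tested, 7 were called higher and 0 lower against the mean of the 6 lines (background 5.64% and 2.77%), and 5 were higher than in every line (background 1.66%). The median difference of the tested members was 1.68, beside -0.05 over all genes. Besides Nqo1 and Gstm1, the enzyme of heme breakdown Hmox1 had 359, 118, 194 and 317 RPKM in the EMT6 tumours, against 28.4 to 114 RPKM with a median of 52.2 in the other 24. Its EMT6 values varied widely, with tumour 2 the lowest, yet lay above all others (2.16 ± 0.25, adjusted p = 1.87e-07). Gclm, the modifier subunit of glutamate-cysteine ligase in glutathione synthesis, had 30.1, 36.0, 26.1 and 33.2 RPKM in the EMT6 tumours, against 6.37 to 12.5 RPKM with a median of 8.78 in the other 24. It was higher in all EMT6 tumours, by 1.72 ± 0.13, adjusted p = 1.23e-10. Txnrd1, the cytosolic thioredoxin reductase, had 58.1, 58.2, 57 and 61.4 RPKM in the EMT6 tumours, against 18.0 to 41.1 RPKM with a median of 28.0 in the other 24. The EMT6 tumours were again above all others (1.09 ± 0.11, adjusted p = 1.37e-08).

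Srxn1, which repairs peroxiredoxins, had 50.8 to 59.8 RPKM in EMT6 and 8.62 to 48.4 RPKM with a median of 14.0 in the other 24, with no overlap (1.68 ± 0.09, adjusted p = 2.53e-13), and E0771 was near EMT6 at a mean of 43.4 RPKM. Gsta4, a glutathione transferase of lipid aldehydes, had 110.1 to 125 RPKM in EMT6 and 0.202 to 144 RPKM with a median of 9.72 in the other 24. F311 tumours reached into the EMT6 range, and the difference from the mean was 3.50 ± 0.32, adjusted p = 3.95e-09. The other 4 tested members were not called. Gclc, the catalytic subunit of glutathione synthesis, averaged 7.86 RPKM in EMT6 and 9.94 in E0771 (0.59 ± 0.13). Gsr, glutathione reductase, averaged 23.2 RPKM in EMT6, against 37.9 in HRM1 and 31.7 in E0771 (0.56 ± 0.09). Me1, malic enzyme, differed by 0.50 ± 0.26. Slc7a11, the cystine importer, had 4.48 to 7.49 RPKM in EMT6 and 0.736 to 6.14 RPKM in the other 24 (1.00 ± 0.13, adjusted p = 6.14e-07), just short of the 2-fold size. Gsta3 was near 0 in nearly all tumours and was not tested. Without EMT6 tumour 2 the list had the same counts, 7 higher and 0 lower.

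**Figure D2:**
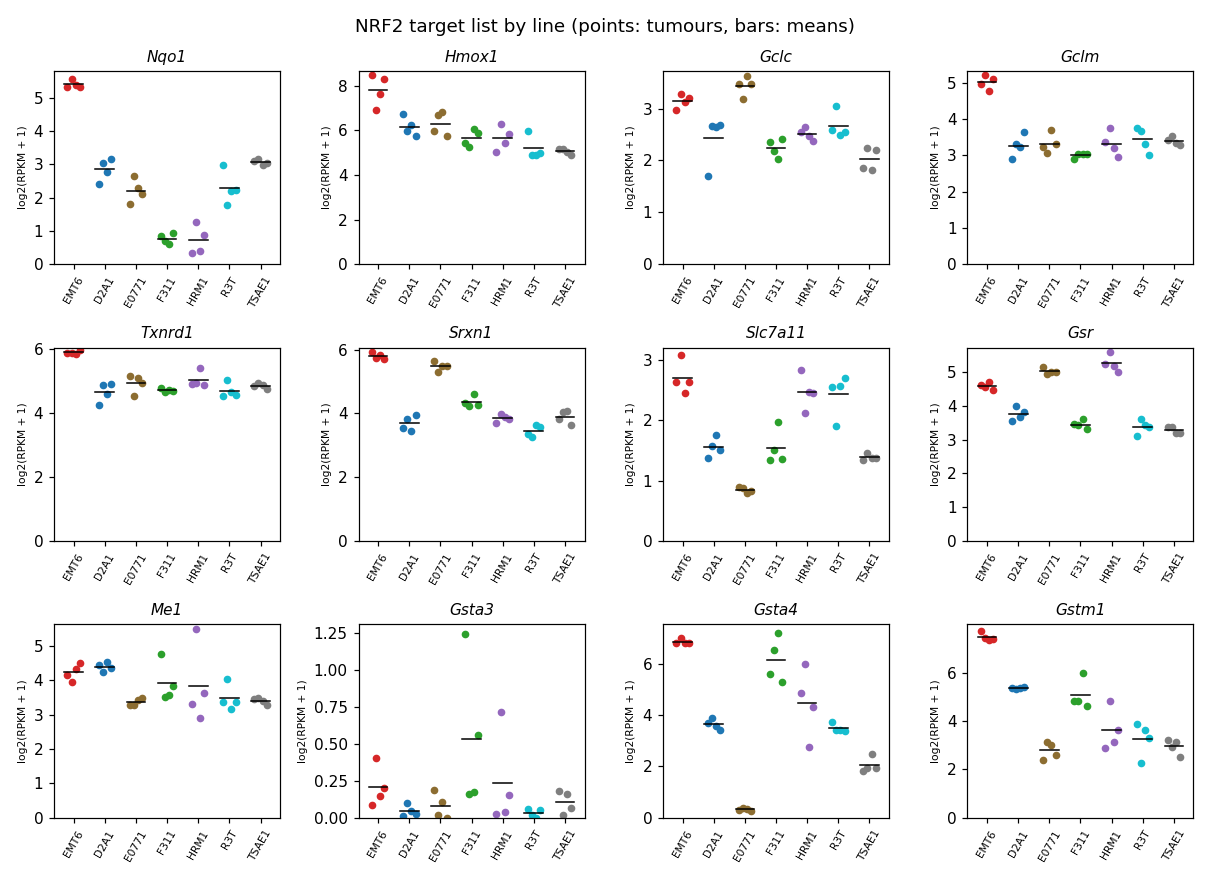
Level on the log2(RPKM + 1) axis of each of the 12 NRF2 list genes in the 4 tumours of each line (points) with the line mean (bar), EMT6 leftmost. EMT6 is above all other tumours in Nqo1, Hmox1, Gclm, Txnrd1, Srxn1 and Gstm1, whereas Gclc, Gsr and Me1 are as high or higher in another line.

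Since NRF2 binds the antioxidant response element, the bases before the transcription starts of the list were searched for its core, TGACNNNGC, on both strands. The sequences are RefSeq windows of 250 bases before a start in GRCm38.p6, a later build than the mm9 used for the deposited values. Of the 12 genes 8 had a window, and 3 of these 8 (37.5%) held the core, against 3112 of 27025 genes (11.5%) with such windows. The list was chosen as NRF2 targets, so this share describes the list and does not draw on the EMT6 levels. Whether NRF2 acted on these genes in the tumours was not tested. The windows of 3 genes higher in EMT6 than in every line are shown, with the core in capitals where it occurs, read 5′ to 3′ on the gene's strand.
Gclm, chr3:122245307-122245556, plus strand: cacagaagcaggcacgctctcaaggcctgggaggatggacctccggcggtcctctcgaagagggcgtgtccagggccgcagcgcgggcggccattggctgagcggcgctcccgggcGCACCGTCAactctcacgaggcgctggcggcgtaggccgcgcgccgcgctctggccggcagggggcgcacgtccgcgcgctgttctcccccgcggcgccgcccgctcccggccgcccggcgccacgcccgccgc
Txnrd1, the middle of 3 starts, chr10:82858956-82859205, plus strand: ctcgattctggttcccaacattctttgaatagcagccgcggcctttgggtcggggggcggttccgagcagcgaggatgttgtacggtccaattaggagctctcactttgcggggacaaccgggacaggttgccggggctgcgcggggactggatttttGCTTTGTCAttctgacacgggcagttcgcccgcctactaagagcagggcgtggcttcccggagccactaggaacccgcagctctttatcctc
Nqo1, chr8:107403206-107403455, minus strand: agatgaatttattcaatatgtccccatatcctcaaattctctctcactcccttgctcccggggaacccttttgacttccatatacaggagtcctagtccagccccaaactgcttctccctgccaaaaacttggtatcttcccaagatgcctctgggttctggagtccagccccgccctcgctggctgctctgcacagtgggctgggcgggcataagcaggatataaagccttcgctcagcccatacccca
The core began 134 bases before the start of Gclm and 92 bases before that of Txnrd1. The letters were not found in the Nqo1 window. The third gene with a match was Gsta3, which was not tested for want of reads.

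Epithelial genes were lower in EMT6 than in the mean of the lines. For these and the lists below, the share over all genes was 5.64% higher and 2.77% lower against that mean. Against every line it was 1.66% higher and 1.2% lower. Of 18 tested genes of epithelial adhesion 11 were called lower and 0 higher (median -1.34). That 0 were lower than in every line is near the share over all genes. Without HRM1 the lower count was 7. Cdh1, E-cadherin, had 1.01, 1.19, 1.05 and 0.655 RPKM in the EMT6 tumours, against 0.128 to 45.7 RPKM with a median of 12.2 in the other 24. D2A1 and E0771 had means of 0.967 and 0.273 RPKM, level with or below EMT6, and the remaining 4 lines had means of 11.1 to 40.1 (-2.14 ± 0.24, adjusted p = 1.11e-07). Epcam, an epithelial adhesion molecule, had 0.481 to 1.86 RPKM in EMT6, against means of 0.698 in D2A1, 1.01 in E0771 and 122 in HRM1 (-2.58 ± 0.38, adjusted p = 5.34e-06). Cldn7, a claudin of epithelial junctions, had 0.0485 to 0.270 RPKM in EMT6 and 0.0171 to 53.8 RPKM with a median of 9.25 in the other 24 (-2.53 ± 0.23, adjusted p = 2.37e-09). In all 3 genes EMT6 stood with D2A1 and E0771 and below F311, HRM1, R3T and TSAE1.

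The partner keratins of simple epithelia went apart. Krt8 had 254, 199, 219 and 159.6 RPKM in the EMT6 tumours, against 31.7 to 868 RPKM with a median of 388 in the other 24, and was not called (-0.26 ± 0.14, adjusted p = 0.125). Krt18 had 30.5, 24.6, 17.0 and 16.5 RPKM in the EMT6 tumours, against 1.99 to 877.9 RPKM with a median of 479 in the other 24. EMT6 was below D2A1, F311, HRM1, R3T and TSAE1 and above E0771, whose mean was 3.30 RPKM (-3.24 ± 0.21, adjusted p = 5.87e-12). D2A1 had the opposite balance, with a mean of 37.2 RPKM of Krt8 and 221 of Krt18. Krt7 had 3.36, 3.07, 2.85 and 4.11 RPKM in EMT6 and 0.257 to 710.4 RPKM with a median of 159 in the other 24 (-3.40 ± 0.17, adjusted p = 7.47e-14), again lower than all but D2A1 and E0771. Of 9 tested luminal genes 4 were lower (Krt18, Krt7, Krt19 and Elf3) and 0 higher, beside 2.77% and 5.64% of all genes. The basal list was mixed, with 3 of 9 higher and 1 lower, beside the same shares. Krt14, a basal keratin, was lower (-1.94), and Trp63, a basal transcription factor, was higher (1.08) at a level of 1.81 to 2.47 RPKM. Acta2, smooth muscle actin, had 228, 134, 312 and 372 RPKM in the EMT6 tumours, against 13.3 to 145 RPKM with a median of 40.4 in the other 24 (2.46 ± 0.36, adjusted p = 5.24e-06), and only tumour 2 reached down into the range of the others. The mesenchymal intermediate filament Vim had 1352 to 1998 RPKM in EMT6 and 367 to 2763 RPKM in the other 24, and was not called (0.34). Of 17 tested genes of the mesenchymal state 1 was higher (Lox, an enzyme that crosslinks collagen) and 1 lower (Twist2). These counts are near the 5.64% and 2.77% of all genes, so the list did not stand out. Lox lost its call without EMT6 tumours 3 or 5 or without E0771 (adjusted p up to 0.111), and Twist2 without E0771. Elf3 lost its call without HRM1, and Trp63 without D2A1, E0771 or R3T. EMT6 tumours thus kept Krt8 at 159.6 to 254 RPKM, below the median of the other 24, while Cdh1, Epcam and Cldn7 were near the floor. Low levels of those adhesion genes were shared with D2A1 and E0771.

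Basement membrane genes were lower in EMT6 too. Of 13 tested, 8 were lower and 0 higher (median -1.43), and 3 were lower than in every line (background 1.2%). These were Lama5, Col4a2 and Lamc1. Col4a2, a collagen IV chain, had 10.0, 3.39, 8.67 and 4.36 RPKM in the EMT6 tumours, against 8.43 to 50.2 RPKM with a median of 25.3 in the other 24. Tumours 1 and 3 overlapped the lowest of the others, and tumours 2 and 5 were below them all (-1.76 ± 0.25, adjusted p = 3.54e-06). Its partner Col4a1 had 15.2, 5.40, 13.1 and 7.55 RPKM in the EMT6 tumours, against 9.74 to 84.4 RPKM with a median of 41.7 in the other 24, with a like overlap (-1.91 ± 0.26, adjusted p = 1.76e-06). Lamc1, the gamma 1 laminin chain, had 10.3, 7.31, 11.4 and 9.33 RPKM in the EMT6 tumours, against 14.1 to 59.6 RPKM with a median of 21.4 in the other 24, with none (-1.24 ± 0.15, adjusted p = 3.99e-07). The laminin chains Lama3 and Lamb3 were lower against the mean (-1.43 and -2.04), with D2A1 and E0771 near EMT6. Without EMT6 tumour 2 the list had 8 lower, and 1 lower than in every line, and that last count was the same without EMT6 tumour 5 or F311 tumour 1. Lamc1 lost its call against every line without EMT6 tumours 1, 2 or 5 or F311 tumours 1, 4 or 5 (adjusted p up to 0.126). Of 12 tested integrin genes 4 were lower (Itga2, Itga3, Itga6 and Itgb4) and 1 higher. Itgb4, which pairs with Itga6 on laminin, had 0.708 to 2.31 RPKM in EMT6 and 0.595 to 25.7 RPKM with a median of 7.50 in the other 24 (-1.94 ± 0.22, adjusted p = 1.16e-07). Itgb8, an integrin chain that activates latent TGF-beta, was the higher one, at 1.61, 1.46, 3.72 and 1.35 RPKM against 0 to 1.40 RPKM with a median of 0.0734 in the other 24 (1.27 ± 0.11, adjusted p = 1.14e-09).

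**Figure D3:**
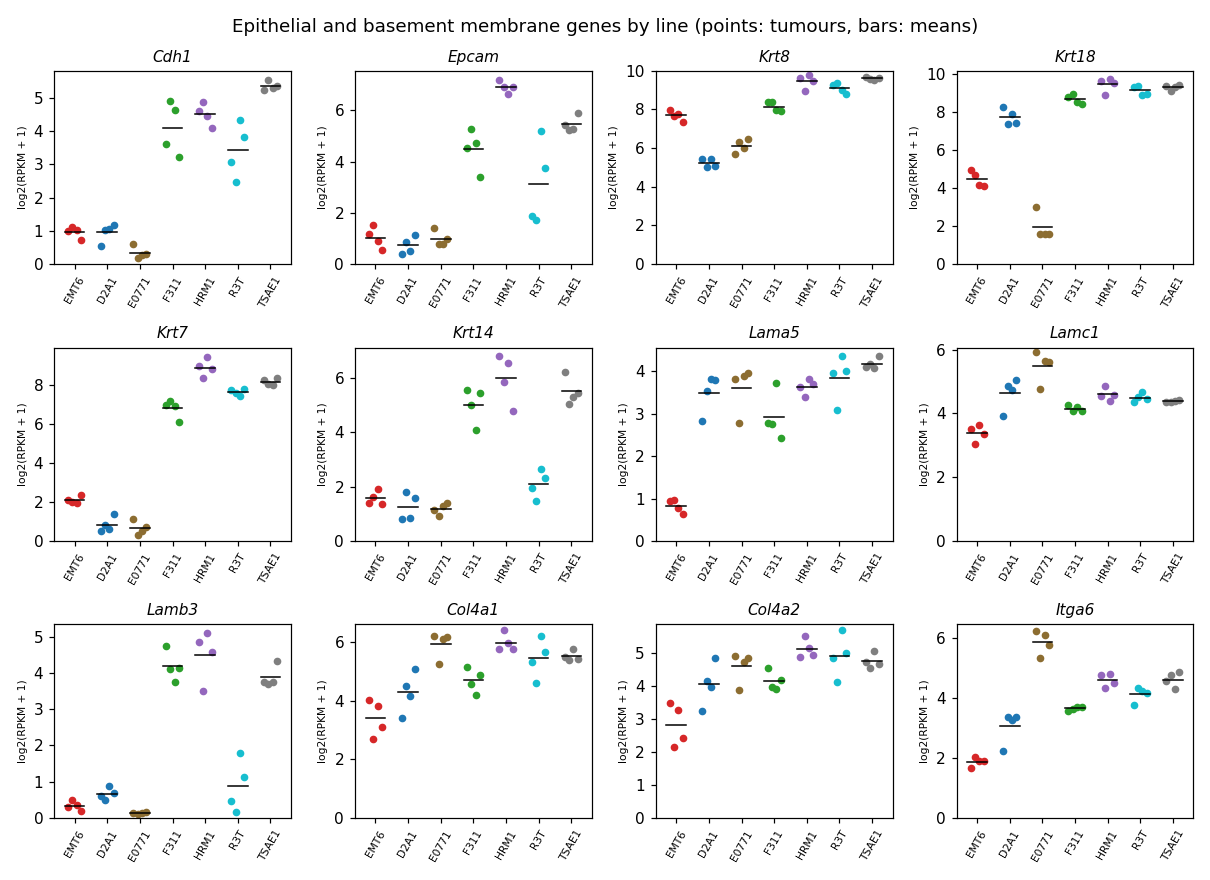
Level on the log2(RPKM + 1) axis of 12 epithelial, basement membrane and integrin genes in the 4 tumours of each line (points) with the line mean (bar), EMT6 leftmost. Cdh1, Epcam and Krt7 are low in EMT6, D2A1 and E0771 alike, whereas Lama5, Lamc1 and Itga6 are lowest in EMT6.

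Leukocyte genes were higher in EMT6 than in the mean of the lines. In whole tumours fewer cells of a type and less RNA per cell cannot be told apart. Of 8 pan-leukocyte genes 6 were higher and 0 lower, and their summed level was 771.3, 1267, 575 and 534 RPKM in EMT6 tumours 1, 2, 3 and 5, against 101 to 642 with a median of 385 in the other 24. Tumours 1 and 2 were above all others. Tumours 3 and 5 lay in the range of R3T and TSAE1, whose highest sums were 642 and 614. Ptprc, the leukocyte phosphatase CD45, had 24.4, 55.8, 18.2 and 19.4 RPKM in the EMT6 tumours, against 2.24 to 19.5 RPKM with a median of 11.1 in the other 24 (1.46 ± 0.20, adjusted p = 2.27e-06). Without tumour 2 its difference was 1.11, adjusted p = 2.21e-05, and 5 of the 8 genes were higher.

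Of 11 tested T and NK cell genes 9 were higher and 0 lower (median 1.74). Their summed level was 65.2, 318, 51.9 and 39.7 RPKM in the EMT6 tumours, against 2.73 to 69.3 with a median of 11.1 in the other 24, with tumour 2 alone beyond the others. Ncr1, the NK cell receptor NKp46, had 3.64, 2.58, 5.41 and 2.54 RPKM in the EMT6 tumours, against 0.0149 to 1.41 RPKM with a median of 0.298 in the other 24. It was higher in each EMT6 tumour, and tumour 2 was not raised (1.69 ± 0.15, adjusted p = 1.02e-09). Lck, the kinase of the T cell receptor, had 7.93, 40.8, 7.37 and 6.84 RPKM in the EMT6 tumours, against 0.329 to 4.90 RPKM with a median of 1.48 in the other 24. All EMT6 tumours were above all others, tumour 2 by the most, and the difference was 2.27 ± 0.26, adjusted p = 1.38e-07, or 1.69, adjusted p = 9.51e-09 without tumour 2. Cd3d and Cd8a, parts of the T cell receptor complex and its co-receptor, had 5.15, 42.1, 3.72 and 2.94 RPKM and 5.37, 18.4, 3.60 and 2.98 RPKM in EMT6, against medians of 0.877 and 0.819 RPKM in the other 24. Both were called, but tumours 1, 3 and 5 lay within the range of F311. Without tumour 2, 8 genes of the list were higher than the mean of the 6 lines. Against the 3 BALB lines the count was 9 with tumour 2 and 5 without it.

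All 9 tested cytotoxic genes were higher (median 2.35), and 8 were without tumour 2. Leaving out any 1 library gave 6 to 9. Against the 3 BALB lines 6 were higher, beside 5.2% of all genes, and 3 without D2A1. Gzmb, granzyme B, had 20.7, 19.4, 23.6 and 16.5 RPKM in the EMT6 tumours, against 0.113 to 20.5 RPKM with a median of 2.61 in the other 24 (2.38 ± 0.40, adjusted p = 3.07e-05). Gzma, granzyme A, had 12.4, 10.5, 16.7 and 5.86 RPKM in the EMT6 tumours, against 0.0562 to 5.88 RPKM with a median of 1.09 in the other 24 (2.35 ± 0.24, adjusted p = 2.33e-08). Ifng, interferon gamma itself, had 3.67, 6.10, 6.20 and 2.46 RPKM in the EMT6 tumours, against 0 to 4.80 RPKM with a median of 0.357 in the other 24 (1.68 ± 0.26, adjusted p = 1.12e-05). In each the EMT6 tumours lay in the upper part of all values and overlapped tumours of other lines. In these genes tumour 5 was the lowest of the EMT6 tumours. The granzymes c to f are near-identical copies, and their separate levels are uncertain. The summed level of the cytotoxic list was 147, 160.2, 253 and 80.4 RPKM in EMT6 and 1.74 to 540.5 with a median of 18.0 in the other 24, the highest being an R3T tumour.

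B cell genes rested on 1 tumour. Of 10 on the list 2 were tested, Cd79b was called (1.67 ± 0.55, adjusted p = 0.0138), and without tumour 2 0 were called (0.30, adjusted p = 0.11). The summed level of the list was 63.1, 483, 63.6 and 56.5 RPKM in EMT6 and 30.2 to 83.5 with a median of 51.6 in the other 24, so tumours 1, 3 and 5 were within the range of the other lines. Ms4a1, which encodes the B cell marker CD20, was at 0.0997 to 0.206 RPKM in those 3 tumours.

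Interferon-gamma-induced genes were higher in EMT6 than in the mean of the lines. Of 16 tested, 15 were higher and 0 lower (median 1.88), and 13 were higher without tumour 2. Against every line 0 were higher, near the 1.66% of all genes. Gbp2, a guanylate-binding protein, had 509, 583, 571 and 477 RPKM in the EMT6 tumours, against 7.41 to 336 RPKM with a median of 45.8 in the other 24. All EMT6 tumours were above all others, with TSAE1 next at a mean of 244 RPKM (3.38 ± 0.39, adjusted p = 1.94e-07). Cxcl9, a chemokine that draws T cells, had 104, 93.9, 124 and 83.7 RPKM in the EMT6 tumours, against 0.532 to 173 RPKM with a median of 9.01 in the other 24. TSAE1 was level with EMT6 at a mean of 110.2 RPKM, and the other 5 lines had means of 1.11 to 25.9 (2.95 ± 0.55, adjusted p = 9.71e-05). Cd274, which encodes PD-L1, had 29.8, 30.2, 26.4 and 21.2 RPKM in the EMT6 tumours, against 1.39 to 33.6 RPKM with a median of 8.60 in the other 24, with TSAE1 at 26.4 (1.58 ± 0.28, adjusted p = 5.32e-05). The transcription factor Irf1 averaged 135 RPKM in EMT6 and 186 in TSAE1. The summed level of the list was 1702, 1975, 1865 and 1486 RPKM in EMT6 tumours 1, 2, 3 and 5. It was 890 to 2291 RPKM in TSAE1 and 216 to 1568 RPKM in F311, so F311 reached into the range of both. E0771, R3T, D2A1 and HRM1 had mean sums of 107 to 445 RPKM.

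Of 12 genes of MHC class I presentation 7 were higher and 0 lower, and these counts were the same without tumour 2. B2m, the light chain of class I molecules, had 3656, 3693, 3759 and 3431 RPKM in the EMT6 tumours, against 497 to 2919 RPKM with a median of 1552 in the other 24. Every EMT6 tumour was above every other (1.38 ± 0.21, adjusted p = 6.21e-06). Psmb8, an immunoproteasome subunit, had 297 to 336 RPKM in EMT6 and 18.1 to 283 RPKM with a median of 88.6 in the other 24 (2.02 ± 0.29, adjusted p = 3.87e-06), also without overlap. The heavy chain genes H2-K1 and H2-D1 differ in sequence between strains and were counted on a single genome, so their levels are uncertain. Their differences were 0.29 and 1.01. Of 8 class II genes 4 were higher against the 6 lines and 1 against the 3 BALB lines. Without tumour 2 these counts were 2 and 0. The count against the 6 lines was 2 without D2A1 or HRM1, 1 without E0771 and 7 without R3T. Against the BALB lines it was 0 without D2A1, 2 without EMT6 tumour 3 or F311 tumour 3, 3 without EMT6 tumour 5 or F311, and 7 without TSAE1. The summed level of the 8 class II genes was 1899, 2274, 1226 and 903 RPKM in EMT6 tumours 1, 2, 3 and 5. R3T was the highest line, with a mean sum of 3307 RPKM. The mean sums were 1937 in TSAE1, 1246 in F311, 404 in HRM1, 339 in D2A1 and 114 in E0771. Cd74, the class II invariant chain, had 994, 1132, 600.4 and 416 RPKM in EMT6, against means of 1035 in TSAE1 and 29.0 in E0771 (1.42 ± 0.38, adjusted p = 0.00305). It lost its call without E0771 (adjusted p = 0.109). Of 22 genes stimulated by type I interferon 6 were higher, a smaller share than of the interferon-gamma list, and 7 were without tumour 2 and 11 without E0771. The difference between the lists was not tested.

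Of 14 tested chemokines 7 were higher and 0 lower, and 3 were higher than in every line. Ccl3 and Ccl4, which draw monocytes and lymphocytes, had 17.0, 15.6, 13.9 and 10.8 RPKM and 25.0, 18.4, 18.8 and 16.2 RPKM in EMT6, against 0.931 to 9.43 and 1.15 to 11.8 RPKM in the other 24. Neither overlapped, and the differences were 1.74 ± 0.23 and 1.84 ± 0.20. Cxcl5, which draws neutrophils, had 31.1, 22.1, 23.2 and 28.2 RPKM in the EMT6 tumours, against 0.0437 to 9.70 RPKM with a median of 3.71 in the other 24, again without overlap (2.93 ± 0.23, adjusted p = 2.23e-10). Without tumour 2, 8 chemokines were higher and 2 higher than in every line, since Ccl4 lost that call (adjusted p = 0.0586). Without tumour 1 that count was 1, since Ccl3 lost it too (adjusted p = 0.0555 for Ccl3 and 0.134 for Ccl4). Ccl3 also lost it without D2A1 tumours 3 or 5, and Ccl4 without EMT6 tumour 3 or E0771 tumours 2, 5 or 6. Of 16 macrophage genes 6 were higher, among them Trem2 (1.36), a lipid receptor of macrophages, and Arg1 (2.36), which breaks down arginine. The count was 7 without tumour 2 and 2 without E0771, where Trem2 was not called. The summed level of the list was 6153, 5358, 4824 and 5283 RPKM in EMT6 and 431 to 9923 with a median of 3552 in the other 24, with D2A1, E0771, HRM1 and TSAE1 wholly below EMT6 and F311 and R3T overlapping it. Of 7 tested mast cell genes 3 were higher, led by the protease Cma1 at 8.64, 11.3, 18.5 and 8.63 RPKM against 0.0642 to 17.3 RPKM with a median of 3.41 in the other 24 (1.58 ± 0.38). TSAE1 was level with EMT6 here too, at a mean of 13.2 RPKM. Of 8 neutrophil genes 2 were higher (S100a8 and S100a9). Of 16 immune checkpoint genes 5 were higher and 2 lower. The lower ones were Tigit, a receptor of T and NK cells, and Nt5e, which makes adenosine. Without tumour 2, and likewise without D2A1, 3 checkpoint genes were higher. Of 10 complement genes 4 were higher, or 2 without E0771 and 7 without HRM1. The mast cell, neutrophil and complement counts were the same without tumour 2. Of 8 dendritic cell genes 1 was higher (Bst2), or 0 without tumour 2, and Bst2 lost its call in 10 of the 28 fits that left out 1 library.

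Among ligands and pathway genes calls went in both directions. Bmp4, a bone morphogenetic protein, had 6.13, 5.27, 7.20 and 8.26 RPKM in the EMT6 tumours, against 0.0350 to 2.53 RPKM with a median of 0.329 in the other 24. It was higher than in every line (2.30 ± 0.13, adjusted p = 4.79e-13), whereas Bmp7 was near 0 in EMT6, at 0.0193 to 0.0889 RPKM, as it was in D2A1 and R3T (-2.06). Figf, which encodes the lymphatic growth factor VEGF-D, had 5.93, 5.09, 7.09 and 4.95 RPKM in EMT6 and 0.0790 to 6.32 RPKM with a median of 1.40 in the other 24 (1.49 ± 0.18, adjusted p = 1.73e-07). It was higher than in every line by the test, although its values overlapped the highest of the other tumours. That call was lost without EMT6 tumours 1, 2 or 3 (adjusted p = 0.0886, 0.0501 and 0.13) and without HRM1 tumours 6 or 9. Pdgfa, a platelet-derived growth factor chain, had 9.67, 8.89, 9.94 and 7.74 RPKM in EMT6 and 10.6 to 50.5 RPKM with a median of 20.5 in the other 24. It was lower in all EMT6 tumours (-1.26 ± 0.18, adjusted p = 2.35e-06). Of 17 growth factor genes 2 were higher (Pdgfc and Figf) and 4 lower (Tgfa, Nrg1, Pdgfa and Pgf), beside 5.64% and 2.77% of all genes, and the lower count was 2 without HRM1. Of 20 Wnt pathway genes 1 was higher (Wnt10a) and 3 lower (Wnt7b, Notum and Dkk2). The effector of Hedgehog signalling Gli1 had 1.48, 1.30, 2.75 and 1.54 RPKM in EMT6 and 0.0520 to 0.924 RPKM with a median of 0.140 in the other 24 (1.11 ± 0.08, adjusted p = 2.99e-11). It was above all other tumours at a low level, and Gli3, its relative that mostly represses, was lower (-1.27). Of 12 Notch genes 2 were lower (Dll1 and Nrarp). Of 15 cytokine genes 4 were higher (Csf1, Il11, Tnf and Il33) and 1 lower (Il34), the lower count being 3 without D2A1 and 2 without E0771. Csf1, the growth factor of macrophages, had 59.3, 49.5, 61.0 and 69.4 RPKM in EMT6 and 9.85 to 67.3 RPKM with a median of 28.7 in the other 24 (1.02 ± 0.16), with R3T in the same range. Leaving out 1 library ended the call of Csf1 (without EMT6 tumour 5, D2A1 tumour 2, E0771 tumour 2 or R3T tumour 7), of Gli1 (without EMT6 tumour 3) and of Wnt10a (without EMT6 tumour 3). Leaving out 1 line ended the calls of Csf1 (without D2A1, F311 or HRM1), Wnt10a (without D2A1, E0771, F311 or R3T), Tgfa (without HRM1 or TSAE1), Notum (without F311 or TSAE1), and Dkk2 and Dll1 (without E0771).

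Of 23 tested genes of hypoxia and glycolysis 5 were higher and 0 lower (median 0.56). Adm, the vasodilator adrenomedullin, had 60.2, 12.6, 38.3 and 48.3 RPKM in the EMT6 tumours, against 1.02 to 73.0 RPKM with a median of 2.47 in the other 24. E0771 was above EMT6 at a mean of 67.1 RPKM, and no other line had a mean over 4.11 (2.69 ± 0.30, adjusted p = 9.01e-08). Car9, a carbonic anhydrase induced by low oxygen, had 19.7, 11.1, 20.4 and 19.0 RPKM in the EMT6 tumours, against 0.128 to 22.0 RPKM with a median of 2.06 in the other 24 (2.28 ± 0.20, adjusted p = 9.6e-10), with TSAE1 near EMT6. In both genes tumour 2 was the lowest of the EMT6 tumours. Slc16a3, the lactate exporter, had 72.7, 51.2, 69.4 and 70.5 RPKM in EMT6 and averaged 96.7 RPKM in E0771 (1.81 ± 0.20). Without tumour 2, 7 genes of the list were higher. Of 16 genes of the amino acid stress response 4 were higher, and 2 without tumour 2, D2A1 tumours 3 or 5, or TSAE1 tumour 1. The count was 1 without F311, HRM1 or TSAE1.

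Cell cycle inhibitors of the INK4 family differed in direction. Cdkn2a, which encodes p16 and p19ARF, had 4.19, 4.30, 8.30 and 4.39 RPKM in the EMT6 tumours, against 0.240 to 249 RPKM with a median of 118 in the other 24. E0771 was lower still at a mean of 0.285 RPKM, and the other 5 lines had means of 64.3 to 234 (-3.38 ± 0.16, adjusted p = 3.06e-14). Its neighbour Cdkn2b, which encodes p15, had 0.387, 0.590, 0.641 and 0.211 RPKM in the EMT6 tumours, against 0.0631 to 64.2 RPKM with a median of 24.0 in the other 24, with the same low lines (-3.51 ± 0.19, adjusted p = 1.55e-13). Cdkn2c, which encodes p18, had 31.0, 30.9, 30.4 and 29.8 RPKM in the EMT6 tumours, against 4.49 to 14.8 RPKM with a median of 10.6 in the other 24. The 4 EMT6 values were nearly equal and above all others (1.59 ± 0.16, adjusted p = 2.16e-08). Trp53 itself was not called, at 29.7 to 34.1 RPKM in EMT6 against a median of 44.2 RPKM (-0.05). Myc had 22.4, 18.4, 25.2 and 19.8 RPKM in EMT6 and 15.2 to 225 RPKM with a median of 62.1 in the other 24 (-1.31 ± 0.12, adjusted p = 4.63e-09), with F311 and R3T as low as EMT6, and without HRM1 it was not called. Mki67, a marker of dividing cells, differed by 0.48 ± 0.16, and of 20 genes of S phase and mitosis 0 were higher and 0 lower.

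Set against the mean of the 3 other lines labelled BALB, 633 genes were higher in EMT6 (5.2%) and 399 lower (3.28%), and the median over all genes was -0.03. Outside the genes that led against every line, the 5 largest differences upward were in Adm, Bst1, Ptgs2, Lgals7 and Slpi. Adm had a highest value of 3.14 RPKM in the BALB tumours, below each EMT6 tumour (3.53 ± 0.32, adjusted p = 3.47e-09). Ptgs2, which encodes the prostaglandin synthase COX-2, had 98.4, 70.9, 103 and 127 RPKM in the EMT6 tumours, against 0.985 to 26.8 RPKM with a median of 13.2 in the 12 other BALB tumours. All EMT6 tumours were above all others, also those of the lines not labelled BALB (3.39 ± 0.30, adjusted p = 2.94e-09). Bst1, an ectoenzyme of NAD, had 99.0, 85.4, 93.6 and 82.2 RPKM in EMT6, against 1.02 to 51.5 RPKM with a median of 9.17 in the 12 other BALB tumours (3.43 ± 0.28, adjusted p = 6.21e-10). Lgals7, a galectin of stratified epithelia, had 85.0, 65.8, 130.3 and 72.8 RPKM in EMT6, against 2.26 to 32.7 RPKM with a median of 6.79 in the 12 other BALB tumours (3.16 ± 0.49, adjusted p = 1.29e-05). Slpi, a secreted protease inhibitor, had 81.8, 146, 48.3 and 58.5 RPKM in EMT6, against 1.07 to 41.5 RPKM with a median of 7.89 in the 12 other BALB tumours (3.15 ± 0.40, adjusted p = 6.68e-07), with tumour 2 the highest. None of the 5 overlapped the BALB tumours, but the genes were chosen for their differences from these same tumours. Their separation is therefore not a further result. All 5 were also called against the BALB lines when TSAE1 was left out.

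The 5 largest lower genes were Cdkn2a (-4.35), Cdkn2b (-4.29), Krt18 (-4.10), Stra6 (-4.03) and Cxadr (-4.0). Cxadr, a junctional receptor for coxsackievirus and adenovirus, had 0.208, 0.779, 0.326 and 0.185 RPKM in the EMT6 tumours, against 14.3 to 29.2 RPKM with a median of 20.5 in the 12 other BALB tumours, and was as low in E0771. NRF2 targets had 9 of 11 higher and 0 lower against the BALB lines, with Gsr (1.09) and Slc7a11 (1.21) added. Of 13 basement membrane genes 7 were lower, of 18 adhesion genes 9, and of 20 Wnt pathway genes 7. Interferon-gamma-induced genes had 8 of 16 higher, or 3 without D2A1 and 14 without TSAE1, and chemokines 8 of 14. The adhesion count was 15 without D2A1 and 5 without TSAE1. Of 8 tested HoxA genes 5 were lower, or 1 without TSAE1, led by Hoxa10 with 0.470 to 0.603 RPKM in EMT6 and a mean of 9.07 in TSAE1 (-2.05 ± 0.10, adjusted p = 2.15e-14). The groups compared here share the EMT6 tumours with the comparison of 6 lines.

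Some lists did not stand out in either direction. Against the mean of the 6 lines, limma called 0 higher and 0 lower of 18 genes of oxidative phosphorylation, 15 ribosomal proteins, 18 genes of cholesterol synthesis, 10 of fatty acid synthesis, 12 endothelial genes and 9 adipocyte genes. Pecam1, a marker of endothelium, averaged 11.9 ± 3.06 RPKM in EMT6 (SD, n = 4), against 5.90 to 24.9 in the other 24 (-0.19). Of 19 fibroblast matrix genes 3 were higher (Col1a1, Col1a2 and Col12a1), or 1 without E0771, and Col1a1 was not called without EMT6 tumours 1 or 3 either. Of 3 tested erythroid genes 3 were lower. Hbb-b1, a globin chain, had 16.8, 12.9, 46.7 and 27.0 RPKM in EMT6 and 11.1 to 3099 RPKM with a median of 176 in the other 24 (-2.79 ± 0.70, adjusted p = 0.00187), with TSAE1 in the same low range. S100a6, a calcium-binding protein, was lower than in every line, at 964, 740.2, 971 and 1303 RPKM in EMT6 against 1470.2 to 3041 RPKM with a median of 2314 in the other 24 (-1.17 ± 0.11, adjusted p = 6.64e-09). Xist, which is expressed from the inactive X chromosome, had 9.65 to 19.9 RPKM in EMT6 and 0.982 to 163 RPKM with a median of 43.9 in the other 24. The groups overlapped and the gene was not called (-0.96). Pik3ca, the labelled driver of HRM1, averaged 7.04 RPKM in EMT6 and 7.37 in HRM1 (-0.23 against the 6 lines).

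**Figure D4:**
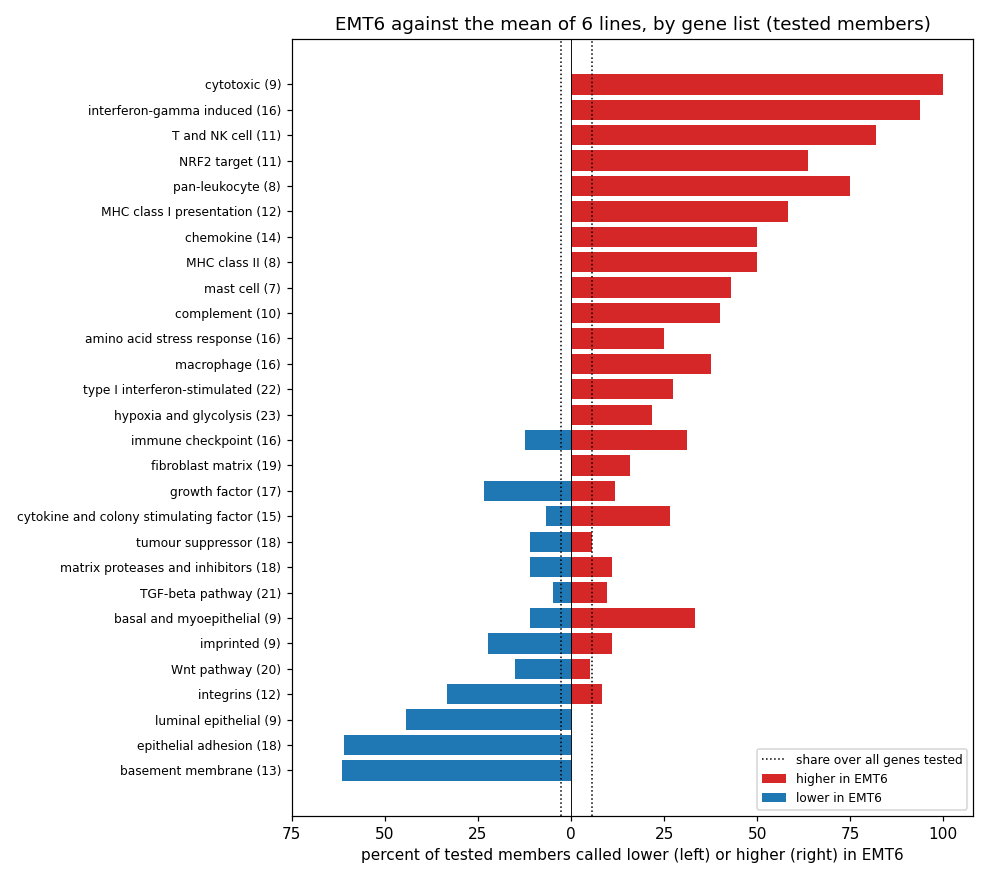
Percent of the tested members of each gene list (number in brackets) called higher (red, right) or lower (blue, left) in EMT6 against the mean of 6 lines, for lists with at least 7 tested members and 3 calls, ordered by median difference, with dotted lines at the 5.64% and 2.77% found over all genes. Cytotoxic and interferon-gamma-induced genes are at the top and epithelial adhesion and basement membrane genes at the bottom.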

How the data were processed

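Flash-frozen tumours gave the RNA, which was read on a HiSeq2500, per the labels' protocols. The submitters' processing notes name TopHat, DESeq2 and the mm9 build, without versions. The authors deposited RPKM for 20188 genes in 335 libraries. Of these columns 28 were compared, 67 of further lines were set beside them without a test, and 240 were not used. How DESeq2 entered the deposited values is not given in the sources used here, and as RPKM are not counts no count test was used. Among 378 pairs of libraries 0 were identical. Whether tumours came from separate animals is labelled by number only, so p-values measure the spread between these samples.

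Values were taken to log2(RPKM + 1). Genes at 1 RPKM or more in at least 4 of the 28 libraries were kept, and limma 3.58.1 in R 4.3.3 was fitted with 1 mean per line and trend and robust moderation. Adjusted p-values are Benjamini-Hochberg over all 12181 genes. For the comparison with every line the largest of the 6 p-values was adjusted. The fits were tested on simulated data.

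The members and the 62 gene lists were chosen with earlier results of these data known. Named genes were the 15 highest and up to 10 lowest against every line by margin (at least 2-fold in each, no overlap, 5 RPKM in the higher groups), the 5 largest in each direction against BALB lines, up to 4 called members per list, the 6 of largest range within EMT6, and Pik3ca and Xist as checks, without predicted genes and receptor or immunoglobulin segments. Other list members are named to complete a list, and were chosen after their values were seen. Some genes the rule selects are not reported here. Alternatives were another pseudocount, other filters, rescaling, a replicate block, libraries or lines left out, and the line as the unit. Promoter windows were read from RefSeq GRCm38.p6 tables. Python 3.11.15 with pandas 2.3.3, numpy 2.4.6 and matplotlib 3.10.9 was used for windows and figures.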

Additional observations from a re-analysis of the deposited data

Results flagged for a closer look

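Among 228 named genes, 22 had 1 EMT6 tumour whose gap to the nearest of the other 3, divided by the range of the 4 on the log2(RPKM + 1) scale, exceeded Dixon's 95% critical value for 4 samples. Chance flags about 1 in 20 such groups when they are independent and not chosen for their spread. The genes here include those named for the largest range over the same 4 tumours, and genes of the same tumours are not independent. The count of 22 can therefore not be read against that rate. Tumour 2 was the one apart in 14, tumour 3 in 5, tumour 5 in 2 and tumour 1 in 1.

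Tumour 2 was the highest in lymphoid and B cell genes: Pou2af1 (gap share 0.995, 30.3 RPKM), Ms4a1 (0.975, 40.7 RPKM), Cd79b (0.876, 83.6 RPKM), Ccl19 (0.951, 185 RPKM), Ccl21c (0.932, 341 RPKM, near-identical to other copies) and Lck (0.922, 40.8 RPKM). It was also the highest in Rprl1 (0.871, 1002 RPKM), Acly (0.960, 20.5 RPKM) and Pmaip1 (0.836, 2.60 RPKM). It was the lowest in Adamts5 (0.964, 2.92 RPKM), Car9 (0.878, 11.1 RPKM), Slc16a3 (0.868, 51.2 RPKM), Hoxa10 (0.861, 0.470 RPKM) and Il34 (0.846, 3.74 RPKM).

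Tumour 3 was the highest in Ifit2 (0.970, 11.8 RPKM), Cdkn2a (0.932, 8.30 RPKM), Itgb8 (0.851, 3.72 RPKM) and the near-identical Prl2c2 and Prl2c3 (0.887 and 0.895, at 133 and 66.7 RPKM). Tumour 5 was the lowest in Cfb (0.905, 25.9 RPKM) and Psmb9 (0.844, 153 RPKM). Tumour 1 was the highest in Elf3 (0.979, 0.761 RPKM).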

How the results depend on the processing

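With a pseudocount of 0.1, 1090 genes were higher and 764 lower than the mean of 6 lines, and 999 and 809 against the BALB lines. Against every line, genes at 5 RPKM or more gave 125 higher. The other lines pooled into 1 group gave 134 lower, and 255 lower against BALB. With line means as the unit limma called 0 in each direction in both comparisons, with unadjusted p under 0.05 in 312 higher and 156 lower, and in 302 and 171 against BALB. Leaving out a line changed the counts against every line to 309 higher without F311, and 224, 283 and 251 lower without D2A1, E0771 and R3T. Leaving out 1 library gave 670 to 766 higher and 331 to 348 lower against the mean, 165 to 214 and 101 to 164 against every line, and 610 to 693 and 390 to 427 against BALB. Tumour numbers shared by lines are not the same animals. After removal of line means, 11 of 39 same-number pairs of different lines correlated over 0.1, as did 72 of 297 different-number pairs. A replicate block gave 126 higher and 74 lower than in every line. Of 162 named genes called against the mean, 115 kept the call wherever tested with the other pseudocount, filters, rescaling or block and without any 1 library or line, and 0 reversed. With line means as the unit 0 kept it. Where not named above, the cause was not tested. Levels below 0.1 RPKM rest on few reads per kilobase.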
